A study of Mus musculus with 4 samples.

Results

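Transcripts of 7 genes that build the membrane and the membrane skeleton of the red cell, or are carried in it, were followed in single mouse marrow cells: Rhd, Slc4a1, Aqp1, Epb4.2, Epb4.1, Add2 and Cldn13. The genes were taken by name, and all 7 were found among the 17508 gene names of the deposited tables. They were read in the 343 of 1536 wells that held at least 1000 transcripts after spike-ins were set aside. The series is concerned with the blood origin of marrow cells that lack CD45. Its cells came from marrow of C57BL/6 mice, dispersed with collagenase IV and dispase, and lacked CD51, the integrin alpha V chain; the labels name them TNCs without spelling the letters out, and give no age, sex, mutant allele or treatment. They were sorted with the hyaluronan receptor CD44 on the surface (CD44+, 238 kept wells) or without it (CD44-, 105 kept wells), and no unsorted or CD51+ cells were analysed here.

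The red cell membrane is a lipid sheet tied to a net of spectrin and short actin filaments. Anchors of 2 kinds hold it: one runs through the anion exchanger encoded by Slc4a1, with the product of Epb4.2 bound to it, and the other through the product of Epb4.1, which joins spectrin to actin and to membrane proteins. Add2 encodes beta adducin, which caps actin filaments at the corners of the net. Rhd encodes a Rhesus blood group protein, Aqp1 the water channel of the red cell, and Cldn13 a member of the claudin family. In marrow, erythroid progenitors express carbonic anhydrase Car1 before haem synthesis through Alas2 rises, so wells with Car1 alone are used here as earlier and wells with Alas2 as later, as background and not as a result.

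On GRCm38 (mm10; GENCODE vM21), Rhd lies on chromosome 4 from 134864536 to 134896172 (forward strand) and Epb4.1, now Epb41, on the same chromosome from 131923413 to 132075321 (reverse). Aqp1 lies on chromosome 6 from 55336432 to 55348555 and Add2 on chromosome 6 from 86028681 to 86124409, both on the forward strand. Slc4a1 spans chromosome 11 from 102348824 to 102366203, Epb4.2 (now Epb42) chromosome 2 from 121017891 to 121037072, and Cldn13 chromosome 5 from 134914249 to 134915526, all on the reverse strand. Exons of Epb4.1 overlap Gm10300 and Gm13063 on the other strand, and those of Add2 overlap Gm44089. Whether reads were assigned by strand is not given in the sources used here, so these 2 genes could hold reads of their partners.

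The 250 bases before the RefSeq start of Rhd, Aqp1 and Add2 are shown (GRCm38.p6) because these are the members with such an entry whose transcripts were concentrated in wells rich in Car1. Capitals mark GATAA, the letters that GATA factors read, and CCNCNCCC, the letters that KLF1 reads, on either strand. The Rhd stretch is chr4:134864286-134864535, that of Aqp1 chr6:55336049-55336298 and that of Add2 chr6:86028431-86028680, all read on the forward strand.
Rhd: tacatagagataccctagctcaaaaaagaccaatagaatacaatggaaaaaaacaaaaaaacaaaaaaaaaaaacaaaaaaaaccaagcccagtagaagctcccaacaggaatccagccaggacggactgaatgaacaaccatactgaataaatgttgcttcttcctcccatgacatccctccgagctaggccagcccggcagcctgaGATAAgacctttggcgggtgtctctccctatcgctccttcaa
Aqp1: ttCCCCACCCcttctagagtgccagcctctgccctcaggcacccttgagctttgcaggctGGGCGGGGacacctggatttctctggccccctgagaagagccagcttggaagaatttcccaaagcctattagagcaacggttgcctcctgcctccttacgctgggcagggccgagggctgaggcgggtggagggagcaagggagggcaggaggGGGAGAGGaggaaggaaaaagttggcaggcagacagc
Add2: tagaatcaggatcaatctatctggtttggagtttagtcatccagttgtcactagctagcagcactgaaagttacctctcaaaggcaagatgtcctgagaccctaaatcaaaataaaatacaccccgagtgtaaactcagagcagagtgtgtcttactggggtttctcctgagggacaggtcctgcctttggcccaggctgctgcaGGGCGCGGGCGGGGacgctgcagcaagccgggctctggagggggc
In windows of 300 bases, 250 before and 50 after the start, GATAA was found for 2 of the 5 members with an entry: Rhd, with a forward match 42 bases before the start, and Epb4.2, with a reverse match 226 bases before it. CCNCNCCC was found for 4 of the 5 (Rhd, Aqp1, Epb4.1 and Add2), in Rhd only after the start and so outside the printed stretch. Over all 32851 such windows of the table, 25.4% held GATAA and 49.5% held CCNCNCCC; no match of one motif overlapped a match of the other in these 5 genes. Epb4.1 has 3 windows, and 1 of them held neither motif. Slc4a1 and Cldn13 had no entry.

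The kept wells formed 6 libraries, 3 per sort. Replicate 1 of each sort was a plate of its own, and replicates 2 and 3 came from plates shared with the other sort. Libraries summed to between 97042 and 1707320 transcripts, with a median of 1795 to 11225 per well. Wells of low RNA quality made up 34.4% of all kept wells. Wells with a Car1 or Alas2 transcript, called erythroid wells from here on, numbered 168. The name rests on at least 1 such transcript. As a set these wells also held markers of neutrophils, B progenitors and stroma, given below. Erythroid wells made up 42.9%, 32.6% and 78.2% of CD44+ replicates 1, 2 and 3 and 20.5%, 50% and 64.9% of the CD44- replicates. Of these wells, 110 held Car1 alone, 39 held both, and 19 held Alas2 alone; 175 kept wells held neither. Marker lists were set beside the classes: summed erythroid progenitor markers stood at 6043, 8219, 1756 and 458 CPM (transcripts scaled to the same total in each library or class) in the 4 classes in that order, and summed late erythroid markers at 1044, 2599, 10905 and 550 CPM. The first list includes Car1 and the second Alas2, which set the classes, so these sums differ partly by construction. CD44- replicate 1 stood apart, with 9 erythroid wells that all held Alas2. Member values without it are given where they differ by more than 1.5 times. Marker lists by class are not given without it. Cd44 itself did not separate the libraries (201 ± 97.4 CPM in CD44+ and 194 ± 131 in CD44-; SD, n = 3), so it gave no check of the sort.

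Across all kept wells, Rhd, Add2 and Cldn13 were each higher in every CD44+ library than in any CD44- library, Slc4a1 was lower in every one, and Aqp1, Epb4.1 and Epb4.2 overlapped. None of the 6 tested members was called between the sorts by the edgeR test without a pairing term. With a pairing term in the fit, Rhd, Add2 and Cldn13 were called higher in CD44+.

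Rhd stood at 187, 187 and 428 CPM in CD44+ replicates 1, 2 and 3, and at 51.5, 39.5 and 88.2 CPM in the CD44- replicates. The sorts did not overlap, and replicate 3 was the highest of each. The means were 268 ± 139 and 59.7 ± 25.4 CPM (SD, n = 3), and the log2 difference was 2.01 (SE 0.45; edgeR adjusted p = 0.0813). With the pairing term it was 2.05 (SE 0.39; edgeR adjusted p = 0.0141). Transcripts of this Rhesus gene numbered 28, 210 and 732 in CD44+ and 5, 4 and 14 in CD44-, so the CD44- levels rest on few molecules.

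Slc4a1, the anion exchanger, stood at 20.04, 152 and 206 CPM in the CD44+ replicates and at 278, 207 and 208 CPM in the CD44- replicates. The order was the reverse of that of Rhd, and the highest CD44+ and the lowest CD44- libraries were at 206 and 207 CPM. CD44+ replicate 1 held 3 Slc4a1 transcripts, which is the limit that a count of 0 allows (20.04 CPM there). The means were 126 ± 95.7 and 231 ± 40.8 CPM (SD, n = 3), and they differed by -1.02 on the log2 scale (SE 0.58; edgeR adjusted p = 0.365). The difference was -0.50 without CD44+ replicate 1, -0.59 without CD44- replicate 1 and -0.12 on the shared plates alone.

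Aqp1, the water channel, stood at 174, 364 and 612 CPM in the CD44+ replicates and at 51.5, 217 and 69.3 CPM in the CD44- replicates. CD44+ replicate 1 lay below CD44- replicate 2, so the sorts overlapped, while within each pair CD44+ was higher. The log2 difference was 1.66 (SE 0.57; edgeR adjusted p = 0.177), and 1.75 with the pairing term (edgeR adjusted p = 0.0544).

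The anchors of the skeleton showed no common order. Epb4.1 stood at 60.1, 59.03 and 115 CPM in CD44+ and at 330, 69.1 and 88.2 CPM in CD44-, where replicate 1 alone was far above the rest. Between the sorts it differed by -1.21 on the log2 scale (SE 0.67; edgeR adjusted p = 0.351), and by 0.11 without CD44- replicate 1 (edgeR adjusted p = 0.922). Epb4.2 stood at 26.7, 23.2 and 70.9 CPM in CD44+ and at 41.2, 39.5 and 132 CPM in CD44-, and did not pass the filter on low genes. With 180.1 transcripts over all kept wells, 4 in each of 3 libraries, it was the sparsest of the 7 members.

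Add2, the actin cap, stood at 100, 71.6 and 219 CPM in CD44+ and at 10.3, 19.7 and 37.8 CPM in CD44-, where it rests on 1, 2 and 6 transcripts. The sorts did not overlap. The log2 difference was 2.33 (SE 0.60; edgeR adjusted p = 0.113), and 2.38 with the pairing term (edgeR adjusted p = 0.0318). Cldn13 stood at 100, 107 and 236 CPM in CD44+ and at 20.6, 29.6 and 37.8 CPM in CD44-, again without overlap, on 2, 3 and 6 CD44- transcripts. Its log2 difference was 2.19 (SE 0.47; edgeR adjusted p = 0.0749), and 2.20 with the pairing term (edgeR adjusted p = 0.0280).

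**Figure D1:**
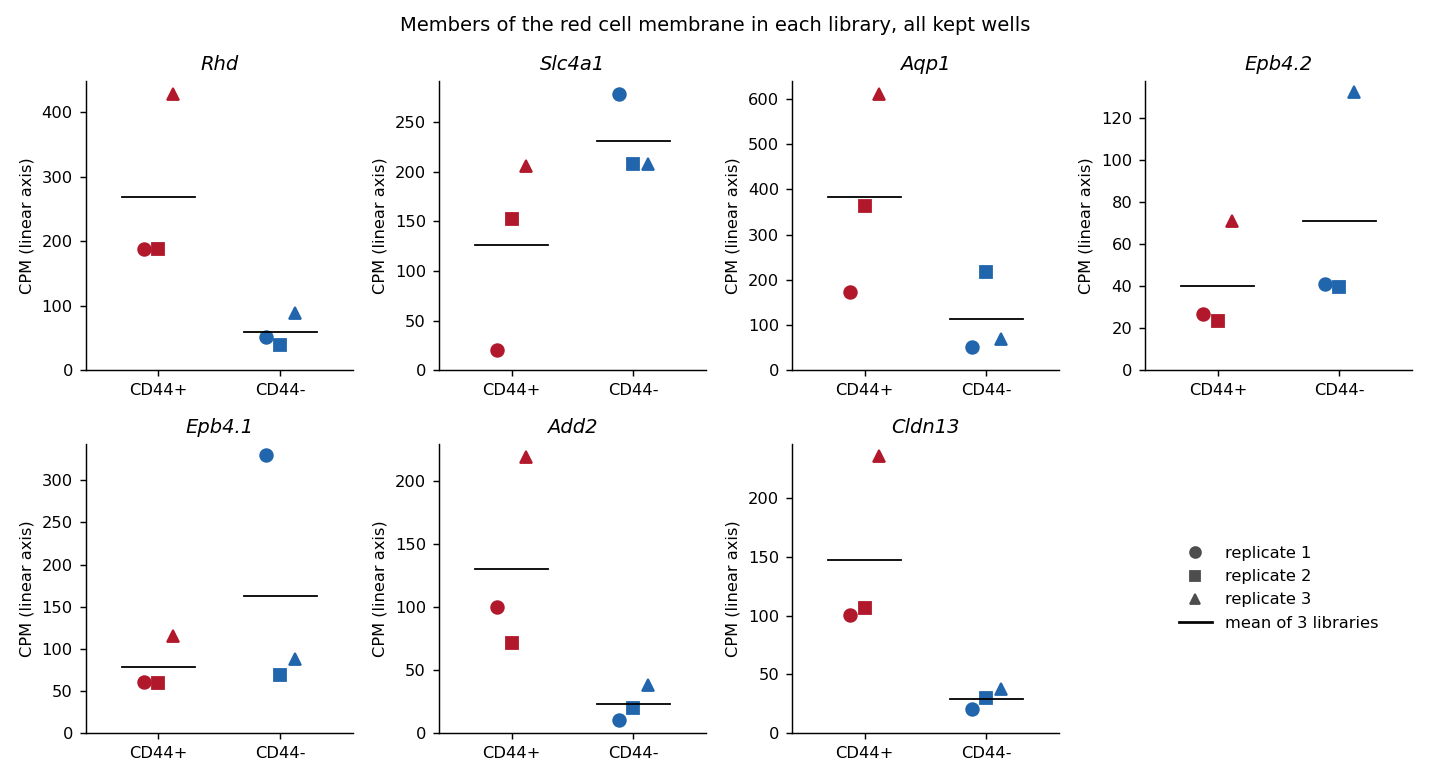
CPM of each member (vertical axis, linear, from 0) in the 3 CD44+ libraries (red) and the 3 CD44- libraries (blue), all kept wells, with the replicate as the symbol and the mean of 3 as a line. Rhd, Add2 and Cldn13 lie higher in every CD44+ library (100 to 236 CPM for Cldn13 against 20.6 to 37.8), Slc4a1 lies lower, and Epb4.1 has 1 high CD44- library at 330 CPM.

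Of 2463 genes tested between the sorts, 1.02% were called by edgeR (1 higher and 24 lower in CD44+), against 0 of the 6 tested members. An unadjusted edgeR p under 0.05 was found for 470 of the 2463 genes and 4 of the 6 members. DESeq2 called 270 of these genes (98 higher and 172 lower) and 4 members, all higher. The median log2 difference was 1.83 over the 6 members and -0.04 over all genes tested. Groups without overlap were also common elsewhere: 16.8% of the tested genes were higher in every CD44+ library, against 3 of 6 members, and 9.22% were lower in every one, against 1 of 6. With the pairing term, 1.75% of the tested genes were called higher in CD44+, against 3 of 6 members. Among markers of other cells, the stromal list separated the sorts and the neutrophil list did not. The summed stromal list stood at 167 to 1362 CPM in the CD44+ libraries (8 to 12 of its 12 genes found) and 5564 to 28804 CPM in the CD44- libraries (12 of 12 in each). The neutrophil list overlapped, at 4841 to 12622 CPM against 1285 to 36781 CPM, with 10 of 10 genes found in each library. Fewer erythroid cells and less of a transcript per cell cannot be told apart in such sums, which is why the comparison was repeated within erythroid wells.

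Within erythroid wells, the sorts separated for 5 members, and again no member was called. Rhd stood at 356, 350 and 496 CPM in CD44+ and at 241, 36.8 and 121 CPM in CD44- (log2 difference 1.55, SE 0.50, adjusted p = 0.122 in edgeR). Add2 stood at 184, 133 and 254 CPM against 48.2, 18.4 and 46.5 CPM (2.04, SE 0.53, adjusted p = 0.0864), and Cldn13 at 198, 200 and 273 CPM against 96.5, 18.4 and 55.8 CPM (1.91, SE 0.48, adjusted p = 0.0833). For these Rhesus, adducin and claudin genes, each CD44+ library again lay above each CD44- library. The CD44- levels rest on 5, 2 and 13 transcripts for Rhd, 1, 1 and 5 for Add2 and 2, 1 and 6 for Cldn13. A count of 0 allows 145 CPM in CD44- replicate 1, above Add2 in CD44+ replicate 2. In CD44- replicate 2 it allows 55.1 CPM, above each of these genes there.

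Aqp1, which overlapped over all wells, did not overlap here, at 343, 684 and 707 CPM in CD44+ against 241, 294 and 92.95 CPM in CD44- (log2 difference 1.31, SE 0.51, adjusted p = 0.167 in edgeR). Slc4a1 lay the other way, at 39.5, 279 and 239 CPM in CD44+ against 1255, 350 and 288 CPM in CD44- (-1.74, SE 0.70, adjusted p = 0.180). Without CD44- replicate 1 the difference of Slc4a1 was -0.87 (edgeR adjusted p = 0.390), and on the shared plates alone -0.32 (edgeR adjusted p = 0.708). Epb4.1 stood at 105, 76.7 and 133 CPM against 1352, 91.9 and 112 CPM, differing by -2.13 on the log2 scale (SE 0.89; edgeR adjusted p = 0.194). Without CD44- replicate 1 it differed by -0.23 (edgeR adjusted p = 0.855). Epb4.2 stood at 13.2, 39.2 and 79.7 CPM against 96.5, 73.5 and 195 CPM, overlapping by 1 library, and was not tested.

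Among 1430 genes tested within erythroid wells, edgeR called 1.68% (3 higher and 21 lower) and 0 of 6 members; all 6 had an unadjusted p under 0.05, and DESeq2 called 3 higher and 1 lower. Here 23.9% of tested genes were higher in every CD44+ library, against 4 of 6 members, and 9.37% lower in every one, against 1 of 6. The libraries also differed in how late and how deep their erythroid wells were. The share of wells with Alas2 and the median depth overlapped between the sorts. Wells with Alas2 made up 20.8%, 22.6% and 36.8% of the CD44+ erythroid wells and 100%, 33.3% and 33.3% of the CD44- ones. The summed erythroid progenitor markers did not overlap between the sorts in these wells, at 5342 to 8438 CPM in CD44+ (12 of 12 genes found in each library) against 1747 to 3958 CPM in CD44- (10 to 12 of 12). Nor did the late erythroid markers, at 1528 to 1764 CPM (12 to 14 of 14) against 2337 to 16754 CPM (13 to 14 of 14). These lists include Car1 and Alas2, by which the wells were chosen. Car1 alone stood at 3612 CPM in CD44+ replicate 1, and Alas2 alone at 2802 CPM in CD44- replicate 1. Median depth was 2314, 7322 and 14511 transcripts in CD44+ and 2317, 1985 and 2115 in CD44-. The stromal list stood at 105 to 970 CPM (6 to 12 of 12 genes found) against 1509 to 23909 CPM (8 to 12 of 12). The neutrophil list overlapped, at 1468 to 6708 CPM in CD44+ against 40326, 11849 and 1618 CPM in CD44- replicates 1, 2 and 3. So did the B progenitor list, at 187 to 1958 CPM against 917 to 4032 CPM. In CD44- replicates 1 and 2 the neutrophil list thus stood above the erythroid progenitor list. The part of these in the member differences was not tested.

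Most member transcripts lay in the erythroid wells. These 168 of 343 wells held 69.5% of all transcripts, and 99.1% of Cldn13 transcripts, 98.9% of Rhd, 98.7% of Aqp1, 98.5% of Add2, 98.0% of Slc4a1, 93.3% of Epb4.2 and 90.2% of Epb4.1. In wells with neither Car1 nor Alas2, member levels lay between 4.91 CPM (Cldn13, 5 transcripts) and 31.4 CPM (Epb4.1, 32 transcripts). By library, the anion exchanger Slc4a1 stood at 0, 11.3 and 4.2 CPM in CD44+ wells with neither and at 13.1, 42.6 and 39.1 CPM in CD44- wells with neither, each below its erythroid level in the same library. Slc4a1, Aqp1 and Epb4.1 were higher in erythroid wells in all 6 libraries. So were 2.89% of 16925 genes taken without the filter on low genes. Among the genes that passed this filter, which no member did, it was 198 of 858. Rhd was not higher in all 6, since CD44- replicate 2 held 2 transcripts in each class (36.8 CPM in erythroid wells and 42.6 CPM in the others).

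The edgeR test with the filter on low genes called 15.7% of 858 genes between these classes, but the filter removed all 7 members, so it says nothing of them. Without the filter, 16925 genes were tested, of which 1.63% were called higher in erythroid wells, and all 7 members were among those called. The fitted log2 differences were 4.91 for Cldn13 (SE 0.69), 4.50 for Rhd (SE 0.60), 4.50 for Slc4a1 (SE 0.55), 4.34 for Aqp1 (SE 0.56) and 4.0 for Add2 (SE 0.66), with adjusted p from 7.12e-13 to 3.99e-07 in edgeR. Those of Epb4.1 (2.31, SE 0.49, adjusted p = 0.000184) and Epb4.2 (2.17, SE 0.58, adjusted p = 0.00818) were smaller. With classes read from thinned wells and the filter kept, 4 members were tested (Slc4a1 1.77, Aqp1 1.5, Rhd 1.31 and Cldn13 0.95) and none was called, with adjusted p from 0.0645 to 0.154 in edgeR. Car1 and Alas2 set the classes and are not read, and low-quality wells made up 18.5% of erythroid wells and 49.7% of the others, the part of which in these differences was not tested.

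Wells of other lineages held few member transcripts. Among wells with neither erythroid transcript, 46 held at least 10 transcripts of the B progenitor list and 46 at least 10 of the neutrophil list; 41 and 29 wells lay near that limit, with 5 to 19. Rhd was found in 2 of the B progenitor wells and 5 of the neutrophil wells, and Cldn13 in 1 and 4. Aqp1 was found in 2 and 9. Epb4.1, the spectrin to actin link, was found in 7 of 46 B progenitor wells, 7 of 46 neutrophil wells and 7 of 21 monocyte and macrophage wells, at 28.7, 27.6 and 31.1 CPM. Its level there was close to that in all wells with neither transcript (31.4 CPM), and after thinning none of these wells kept an Epb4.1 transcript. In 16 stromal wells, Rhd and Cldn13 were at 0, which allows a share of up to 18.8% of such wells with a transcript.

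The members appeared at different points from Car1 to Alas2. To compare detection of the members at equal depth, each well was thinned to 1000 transcripts, which 342 wells allowed. The classes were read before thinning, so the class of a well can still depend on its depth. Median depth was 5557, 12480 and 2139 transcripts in Car1-only, both and Alas2-only wells. Shares of wells carry exact 95% binomial intervals, which cover counting error only. Slc4a1 was found in 5.45% of Car1-only wells (2.03 to 11.5), 43.6% of wells with both (27.8 to 60.4) and 42.1% of Alas2-only wells (20.3 to 66.5), against 3.45% of wells with neither. Aqp1 was found in 28.2% (20.02 to 37.6), 48.7% (32.4 to 65.2) and 0 of 19 wells (exact upper bound 17.6%; 3 wells of 19, the limit taken for a count of 0 elsewhere, is 15.8%), against 5.75% of wells with neither. The anion exchanger had its higher shares in both Alas2 classes, and the water channel in both Car1 classes.

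Rhd was found in 13.6%, 41.03% and 15.8% of Car1-only, both and Alas2-only wells, Add2 in 12.7%, 23.1% and 5.26%, and Cldn13 in 10%, 23.1% and 0 of 19. All 3 had their highest share in wells with both. Where a class needed at least 2 transcripts of Car1 or Alas2, this held for Rhd and Cldn13 but not for Add2. The Add2 shares were then 18.99%, 16.7% and 15.4% in the same order, on 15, 3 and 2 wells. Epb4.1 was found in 8.18% (3.81 to 14.96), 12.8% (4.30 to 27.4) and 47.4% (24.4 to 71.1), highest where Aqp1 was at 0. Epb4.2 was found in 1.82%, 12.8% and 10.5%, on 2, 5 and 2 wells. Without thinning the same shares ranged from 15.8% to 79.5% over the 3 erythroid classes, with median depths of 5557, 12480 and 2139 transcripts, so depth moves with class in the raw shares. Of the 19 Alas2-only wells, 7 came from CD44- replicate 1; without it Epb4.1 was found in 41.7% and Slc4a1 in 41.7% of the remaining 12. Of the 10 Alas2-only wells with at least 2000 transcripts, 2 held Slc4a1 after thinning (20%, 2.52 to 55.6).

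**Figure D2:**
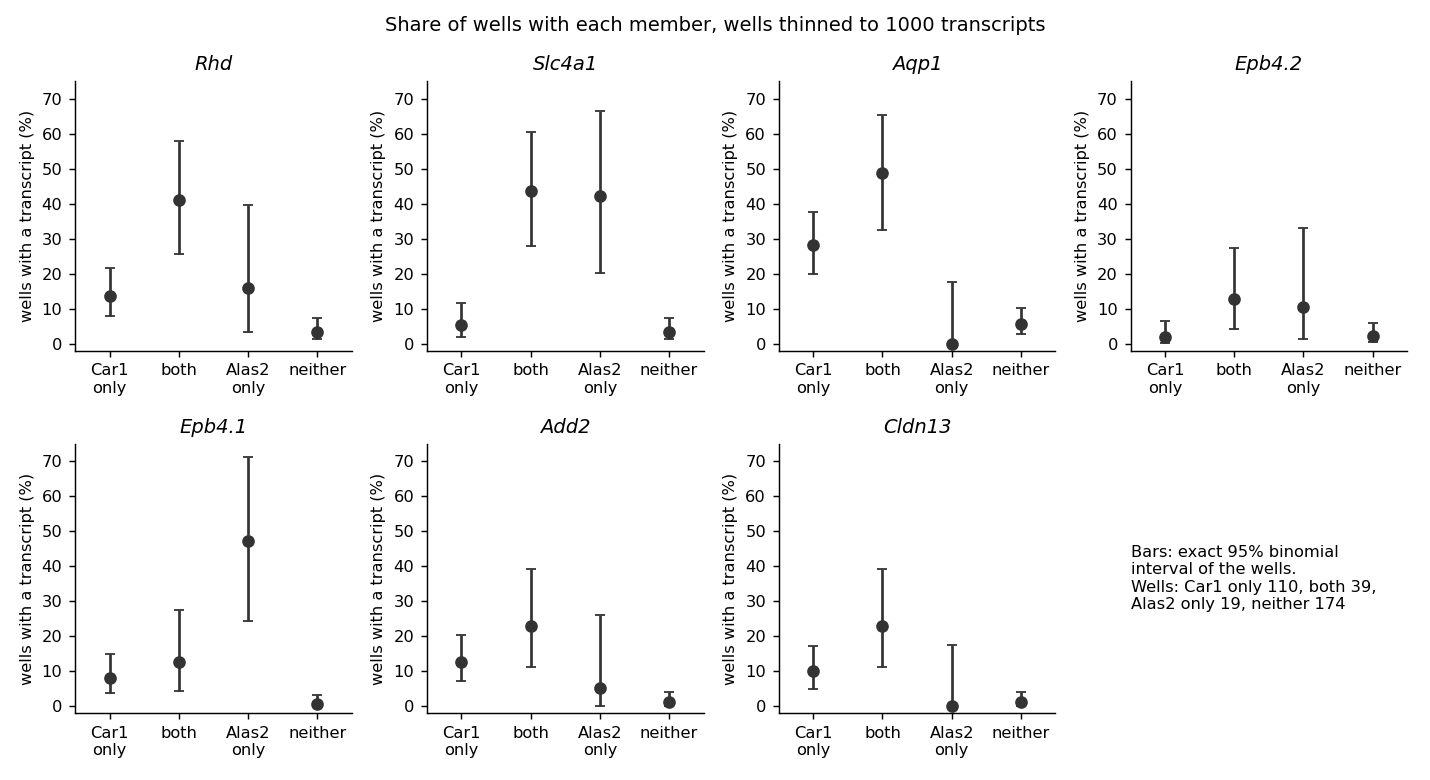
Share of wells (vertical axis, percent) with at least 1 transcript of each member after thinning to 1000 transcripts, in wells with Car1 only, both, Alas2 only or neither; bars are exact 95% binomial intervals over wells. Slc4a1 is at 43.6% and 42.1% in the classes with Alas2 against 5.45% with Car1 alone, Epb4.1 peaks at 47.4% in Alas2-only wells, and Aqp1 is at 0 there.

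Slc4a1 alone was called between wells with Alas2 and Car1-only wells of the same libraries. It stood at 15.4, 69.1 and 27.2 CPM in Car1-only wells of CD44+ replicates 1, 2 and 3 and at 179, 619 and 473 CPM in their Alas2 wells. In CD44- replicates 2 and 3 it went from 48.3 and 59.2 CPM to 535 and 1122 CPM. The anion exchanger was higher in 5 of 5 libraries, with no overlap between the classes, although CD44+ replicate 1 rests on 1 and 2 transcripts. The Car1-only levels of CD44- replicates 2 and 3 rest on 1 and 5 transcripts. The log2 difference was 3.80 (SE 0.34, adjusted p = 0.00106 in edgeR with the library as a block). CD44- replicate 1 had no Car1-only wells and is not in this comparison. Its Alas2 wells stood at 1255 CPM. Over all kept wells, 5 wells held 49.7% of the Slc4a1 transcripts, against 23.1% to 27.8% for the other members.

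Of 990 genes tested there, 0.202% were called higher by edgeR and none lower, and 3.33% were higher in all 5 libraries. Without CD44+ replicate 2 or without CD44+ replicate 3, the filter on low genes removed Slc4a1 and no member was called. Without CD44+ replicate 1, CD44- replicate 2 or CD44- replicate 3, its log2 difference was 3.70, 3.71 and 3.56, each still called.

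The other 4 tested members were not called, with log2 differences of 0.81 for Rhd (SE 0.42, adjusted p = 0.767 in edgeR), 0.78 for Cldn13 (SE 0.56, adjusted p = 0.874), 0.46 for Add2 (SE 0.54, adjusted p = 0.954) and 0.40 for Aqp1 (SE 0.38, adjusted p = 0.913). Rhd stood at 371, 332 and 322 CPM in Car1-only wells of the CD44+ replicates and at 269, 380 and 688 CPM in Alas2 wells. In CD44- replicates 2 and 3 Rhd went from 48.3 and 59.2 CPM to 29.7 and 345 CPM, so it was higher in 3 of 5 libraries. Cldn13 was also higher in 3 of 5, Aqp1 in 4 of 5 and Add2 in 2 of 5. The classes overlapped for each of these 4 genes.

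Epb4.2 and Epb4.1 were removed by the filter. Epb4.2, which binds the anion exchanger, stood at 15.4, 22.1, 41.5, 48.3 and 35.5 CPM in Car1-only wells of the 5 libraries and at 0, 66.8, 122, 89.05 and 777 CPM in Alas2 wells, higher in 4 of 5. Epb4.1 stood at 77.2, 85.6, 105, 0 and 59.2 CPM and at 269, 62.3, 164, 148 and 302 CPM, also higher in 4 of 5. Without the filter their log2 differences were 1.90 (SE 0.60, adjusted p = 0.705 in edgeR) and 0.76 (SE 0.56, adjusted p close to 1).

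**Figure D3:**
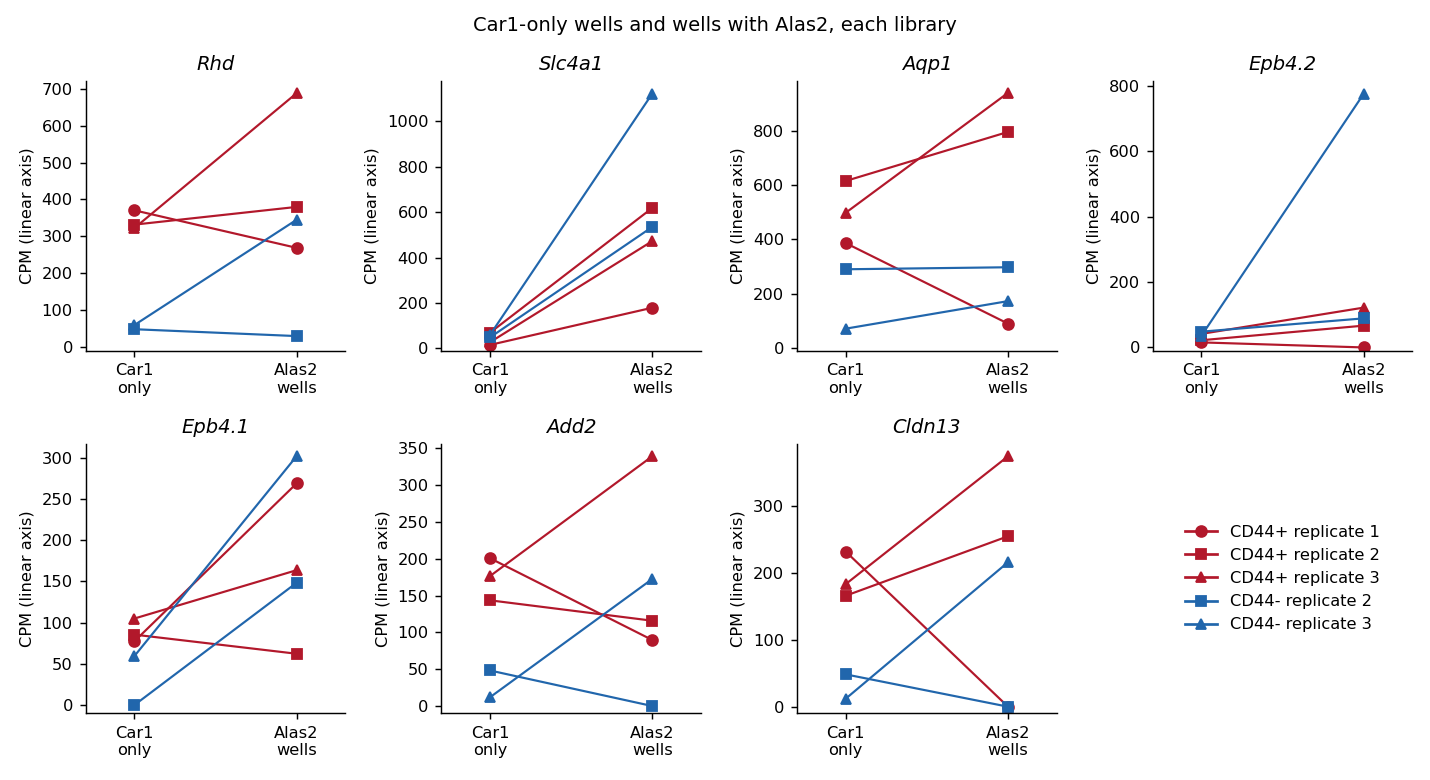
CPM of each member (vertical axis, linear) in Car1-only wells and in wells with Alas2, with a line for each of the 5 libraries that held both (red CD44+, blue CD44-; symbols give the replicate). Slc4a1 rises along all 5 lines, from 15.4 to 69.1 CPM up to 179 to 1122 CPM, while the lines of Rhd, Add2 and Cldn13 cross.

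Whether the step from Car1-only to Alas2 wells differed between the sorts was tested as an interaction. Of 990 genes, 0 were called by edgeR (a share of 0%; 29 had an unadjusted p under 0.05) and 0 by DESeq2 (51 under 0.05). None of the 5 tested members was called, and none had an unadjusted p under 0.05. For Slc4a1 the CD44+ step minus the CD44- step was -0.73 on the log2 scale (SE 0.76, adjusted p = 1 in edgeR). It was -0.54 for Aqp1 (SE 0.88), -1.81 for Rhd (SE 0.97), -2.46 for Add2 (SE 1.75) and -2.54 for Cldn13 (SE 1.83), so the fitted step was smaller in CD44+ for all 5 tested members. The median was -1.81 over these 5 and -0.01 over all genes tested.

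Finer placement used the Alas2 share, Alas2 transcripts as a percentage of Car1 plus Alas2 transcripts in a well. Averaged over a member's transcripts with wells brought to equal depth, it was 12.05% for Aqp1, 18.3% for Rhd, 19.2% for Add2, 22.7% for Cldn13, 53.9% for Epb4.2, 62.4% for Slc4a1 and 72.9% for Epb4.1. The mean over all erythroid wells was 18.6%, so over the pooled wells the first 4 lie near or below it and the last 3 far above. Single libraries did not all keep this split. In CD44- replicate 3, Add2 (64.2%) and Cldn13 (71.02%) lay above Epb4.2 (63.7%), Epb4.1 (61.3%) and Slc4a1 (54.7%). In CD44+ replicate 3, Epb4.2 (18.1%) lay below Cldn13 (19.3%). Without CD44- replicate 3, Epb4.2 stood at 39.9%. The order within the first 4 rests on few libraries: in CD44- replicate 3 the shares were 21.9% for Aqp1, 48.3% for Rhd, 64.2% for Add2 and 71.02% for Cldn13, against 11.6%, 12.5%, 12.8% and 19.3% in CD44+ replicate 3. Without CD44- replicate 3, Add2 stood at 11.3%, below Rhd at 14.1% and Aqp1 at 11.5%.

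Aqp1 and Rhd transcripts lay at lower Alas2 shares than those of Slc4a1 in each library where both could be computed. For Slc4a1 against Aqp1 these were 64.7% and 7.99% in CD44+ replicate 2, 45.05% and 11.6% in CD44+ replicate 3, 84.8% and 25.5% in CD44- replicate 2, and 54.7% and 21.9% in CD44- replicate 3. The place of Epb4.1 at the end rests on CD44- replicate 1, in which its share was 100%; without that library it was 51.7%, below Slc4a1 (55.9%) and Epb4.2 (52.7%).

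Over bins of the Alas2 share, Rhd stood at 306 CPM in wells without Alas2, 651 CPM above 0 to 20%, 472 CPM above 20% and below 100%, and 144 CPM in wells with Alas2 alone. Aqp1 followed the same course at 494, 950, 745 and 47.9 CPM, as did Cldn13 at 167, 375, 225 and 95.8 CPM and Add2 at 156, 313, 176 and 79.8 CPM. All 4 were highest in the bin above 0 to 20%, which held 18 wells of 3 libraries with a median of 31392 transcripts. Slc4a1 stood at 40.7, 378, 938 and 719 CPM, Epb4.2 at 34.5, 110, 139 and 191.5 CPM, and Epb4.1 at 93.6, 141, 114 and 703 CPM, so these 3 had their highest level in a later bin. These are sums, in which deep wells weigh most. As means over wells, Cldn13 stood at 122, 426, 219.8 and 167 CPM and Add2 at 125, 295, 159 and 147 CPM, so neither was lowest in wells with Alas2 alone, and Epb4.2 was highest in the third bin (488 CPM, against 361 CPM in the last).

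The last bin is small, with 19 wells, and single libraries set some of its levels. Without CD44- replicate 1, Epb4.1 there stood at 334 CPM, above its other bins. Without CD44- replicate 3, Epb4.2 stood at 110 CPM and Add2 at 36.6 CPM, and without CD44+ replicate 3 Aqp1 stood at 18.3 CPM and Cldn13 at 54.8 CPM. Without CD44+ replicate 2, Aqp1 stood at 73.2 CPM and Add2 at 122 CPM. In wells with both transcripts, leaving out CD44+ replicate 3 took Rhd from 605 to 372 CPM, Add2 from 278 to 108 CPM and Epb4.1 from 134 to 81.2 CPM. Alas2-only wells also carried 49312 CPM of globin transcripts, against 446 CPM in Car1-only wells, and 20427 CPM of the neutrophil list, with all 10 of its genes found, against 7957 CPM. Both lists were highest in CD44- replicate 1. Its erythroid wells held 142999 CPM of globins, against 2244 to 5933 CPM in the other libraries. For the neutrophil list it was 40326 CPM, against 1468 to 11849 CPM. The part of these lists in the member levels was not tested.

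**Figure D4:**
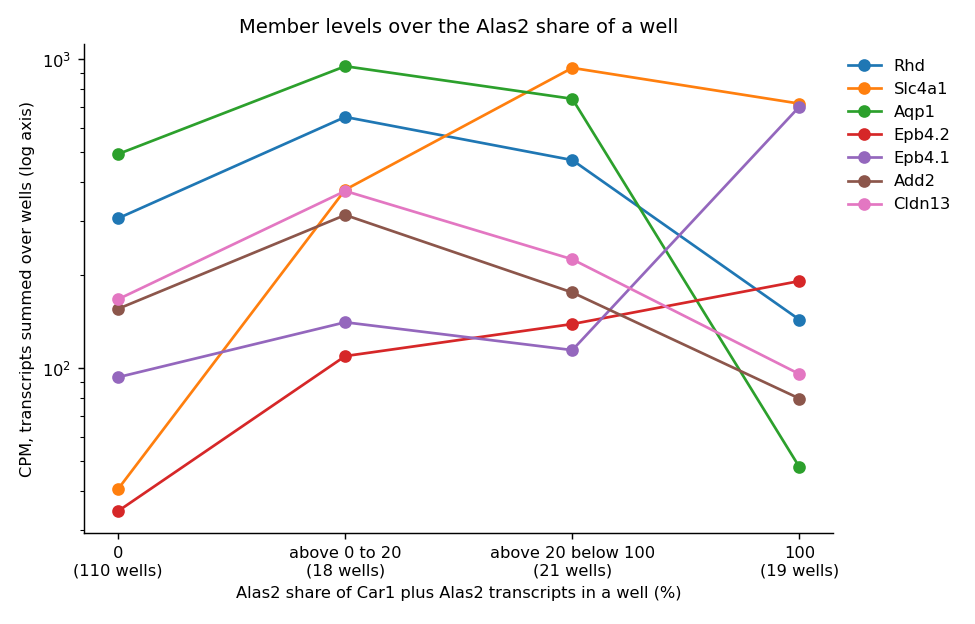
CPM of each member (vertical axis, log scale), summed over the wells of 4 bins of the Alas2 share (horizontal axis, percent; 110, 18, 21 and 19 wells). In these sums Aqp1, Rhd, Cldn13 and Add2 are highest above 0 to 20% and lowest at 100%, whereas Slc4a1, Epb4.2 and Epb4.1 are highest in the last 2 bins.

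Members were often found together. Of the 39 wells with both Car1 and Alas2, 26 held at least 4 of the 7 members and 13 held all 7. Among the 110 Car1-only wells 36 held at least 4, and 4 held all 7. In Alas2-only wells 4 of 19 held at least 4, none held all 7, and the median was 1 member. In wells with neither, 111 of 175 held none of the 7. After thinning, at least 4 members were found in 8 of 39 wells with both, 0 of 110 with Car1 alone and 1 of 19 with Alas2 alone, and no well held all 7.

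In the 168 erythroid wells, Rhd was found in 82 and Aqp1 in 94, and 70 held both: 85.4% of the Rhd wells and 74.5% of the Aqp1 wells. Aqp1 was present in 27.9% of erythroid wells without Rhd. Slc4a1 was found in 50 wells: 40.2% of Rhd wells and 35.1% of Aqp1 wells held it. Of the wells with Epb4.2, whose product binds the anion exchanger, 62.5% held Slc4a1, against 16.7% of erythroid wells without Epb4.2. Of the Slc4a1 wells, 60% held Epb4.2. Each remaining member was found in a larger share of the Epb4.2 wells than Slc4a1, from 77.1% (Add2 and Epb4.1) to 87.5% (Rhd).

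Deep wells hold more of every gene, so the same pairs were read after thinning. Rhd was then found with Aqp1 in 13 wells, 38.2% of the Rhd wells, against 27.6% of wells without Rhd. Slc4a1 was found with Rhd in 14 wells, 41.2% of the Rhd wells, against 12.7% of wells without Rhd. Cldn13 and Aqp1 shared 12 wells, 60% of the 20 Cldn13 wells. Slc4a1 and Epb4.2 shared 6 wells, 66.7% of the 9 Epb4.2 wells, and so did Rhd and Epb4.2. Slc4a1 and Add2 shared 3 wells, 12.5% of the 24 Add2 wells, and Epb4.2 and Cldn13 shared 0 of 9 and 20 wells. These are counts of wells within shared libraries and carry no test.

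**Figure D5:**
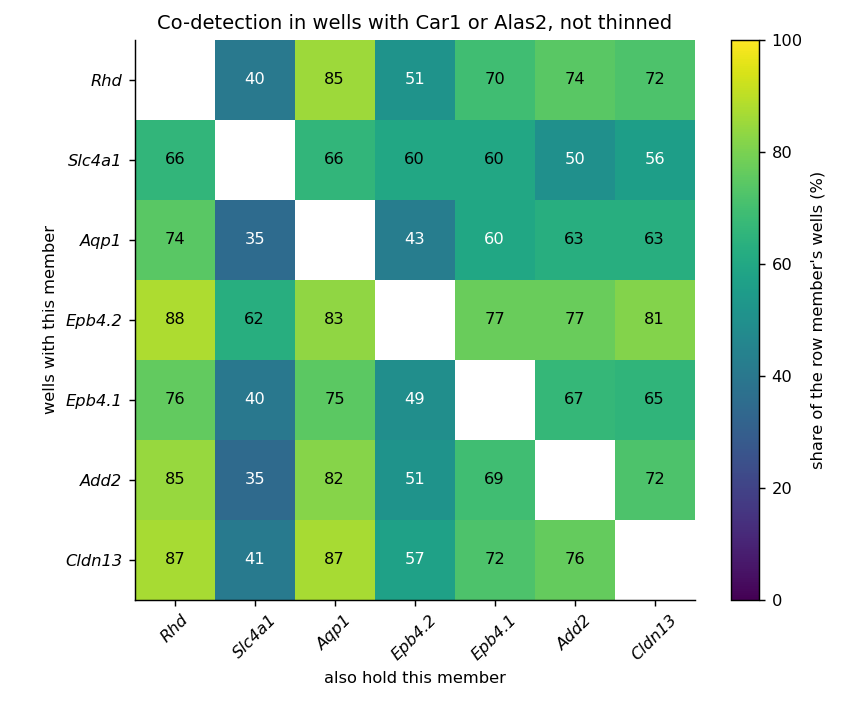
Co-detection in the 168 erythroid wells without thinning: each cell gives the percentage of wells with the row member that also held the column member (color scale from 0 to 100%). Rhd and Aqp1 share the most wells by number (70, 85.4% of Rhd wells), and 40.2% of Rhd wells and 35.1% of Aqp1 wells held Slc4a1.

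Across the 342 thinned wells, the genes most like each member by Pearson r of log2(1 + transcripts) fell into different sets, given as a description since wells share libraries and most values are 0. Aqp1 was most like Car2, a carbonic anhydrase (r = 0.45), Ctse (0.40) and Ccne1 (0.39), and Rhd was like Car2 (0.39) and Ctse (0.38). Cldn13 was most like Cpox (0.34), a haem synthesis enzyme, then Car2 (0.34) and Blvrb (0.33). Slc4a1 was most like Ppp1r15a (0.65), Rsad2 (0.64) and the beta globin Beta-s (0.62), and Epb4.1 most like Alas2 (0.65), Rsad2 (0.63) and Mkrn1 (0.59). Epb4.2, found in 3.80% of thinned wells, was most like Clcn3 (0.50), Gpcpd1 (0.50) and Gadd45a (0.46). No gene reached r = 0.3 with Add2.

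A list of 32 other red cell membrane and skeleton genes gives the setting. Between the sorts 18 were tested and edgeR called 0 (7 with an unadjusted p under 0.05; DESeq2 called 2 higher and 1 lower). The smallest p belonged to Kcnn4, a potassium channel gene (log2 difference 1.84, adjusted p = 0.110), Tpm1, a tropomyosin gene (-2.05, adjusted p = 0.117), and Rhag, the Rhesus-associated glycoprotein gene (1.54, adjusted p = 0.139). With the pairing term Tpm1 was called lower in CD44+ (adjusted p = 0.0331 in edgeR), as were 4.59% of the genes tested. Within erythroid wells 0 of 16 were called (5 under an unadjusted 0.05; DESeq2 called 2), led by Rhag (1.15), Kcnn4 (1.5) and the urea transporter gene Slc14a1 (1.12).

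In erythroid wells against the others, 7 of the 32 were tested. Rhag (2.81, SE 0.40, adjusted p = 0.00301 in edgeR), Ermap (2.61, adjusted p = 0.00301) and the amino acid transporter gene Slc43a1 (3.0, adjusted p = 0.00740) were called higher, and the tropomyosin gene Tpm3 lower (-1.12, adjusted p = 0.0498). Of all 858 genes tested there, 4.78% were called higher and 11% lower. Without the filter, the setting in which all 7 members were called, 17 of the 32 were called higher and 0 lower. Of 16925 genes tested in that setting, 1.63% were called higher. Tpm3 was no longer called with DESeq2 size factors, without low-quality wells, without the library block, or without CD44- replicate 1 or any 1 of the CD44+ libraries. Between Alas2 and Car1-only wells 0 of 12 were called (5 under an unadjusted 0.05, and DESeq2 called 1). Of all 990 genes tested there, 68 had an unadjusted edgeR p under 0.05, and DESeq2 called 15. Among those with the smallest p were the blood group gene Kel (log2 difference 0.95, SE 0.28) and the ankyrin gene Ank1 (1.22, SE 0.44), with adjusted p of 0.484 and 0.588 in edgeR. For the interaction with the sort 0 of 12 were called (4 under an unadjusted 0.05; 0 by DESeq2), with Ermap and Rhag among those with the smallest p.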

How the data were processed

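The deposited values are expected counts: transcripts per gene and well that the authors estimated from molecular identifiers, mapped with BWA 0.7.15 to mm10 per the submitters' processing notes. No source used here names the counter or says whether strand was read. Undoing a correction for saturation of 4096 identifiers returned 100% of 796931 values above 0 to whole numbers within 0.011; this step is inferred from the values. Sums per library were rounded for the tests.

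Wells 1 to 192 of the shared plates were read as CD44+ and 193 to 384 as CD44-. No doublet caller was run on these sorted single cells. Tests used edgeR 4.0.16 in R 4.3.3 (quasi-likelihood, TMM, filterByExpr, two-sided, Benjamini-Hochberg over all tested genes, threshold 0.05), and DESeq2 1.42.0 as an alternative. An SE is the absolute log2 difference divided by the square root of the F statistic. Sums for wells with and without Alas2 or Car1 had the library as a block. CPM used library totals alone. Figures and shares used Python with pandas and scipy.

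No label ties a plate to an animal, so each p-value reflects library-to-library spread alone, possibly technical. Deviations of same-numbered libraries correlated at 0.31, 0.21 and 0.20 over 8819 genes, and other combinations at -0.24 to 0.07, so the numbers, which follow shared plates or a flow cell, were taken to pair libraries. A well was of low quality with at least 10% Kcnq1ot1-type or 50% mitochondrial transcripts, limits set after seeing the data. Members and lists were chosen with earlier results of these data known. All 7 members are named; of the other membrane genes those called, or else the 3 with the smallest p; and for likeness the 3 genes with the highest r of at least 0.3 among those in at least 5% of thinned wells; 1 gene that these rules name is not reported here. Counts were simulated with the trend of spread over level of each comparison, without library or pair effects other than depth. From these, edgeR recovered 67% of 4-fold changes between the sorts (2463 genes) and 87% within erythroid wells (1430 genes). It recovered 100% against other wells (858 genes, none of them a member) and 95% between Alas2 and Car1-only wells (990 genes). Recovery was not read apart for genes as sparse as the members.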

Additional observations from a re-analysis of the deposited data

Results flagged for a closer look

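The 1193 wells under 1000 transcripts were used in no comparison, and all 7 members were above the limit that a count of 0 allows in their sum (12.03 CPM). They stood at 116 CPM for Rhd, 108 for Slc4a1, 112 for Aqp1, 40.1 for Epb4.2, 156 for Epb4.1, 36.1 for Add2 and 72.2 for Cldn13, and at 642 CPM together (160 transcripts in 103 wells), against 1394 CPM in kept wells. Epb4.1 was the member with a higher level there than in kept wells (97.6 CPM). CD44- wells gave 121 of the 160 transcripts (866 CPM) and CD44+ wells 39 (356 CPM). Rhd, Aqp1 and Add2 were lower in CD44+ than in CD44- here, the reverse of the order of their means in kept wells. They stood at 36.5 against 179 CPM for Rhd, 63.9 against 150 for Aqp1 and 18.2 against 50.1 for Add2. Cldn13 kept its order, at 100 against 50.1 CPM. These sums rest on 2 to 25 transcripts per gene and sort, and the reversal was not tested. The 571 wells under 100 transcripts held 12. No test for a single library far from the rest was run in groups of 3 libraries.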

How the results depend on the processing

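The number of members called moved with the test and the filter. Between the sorts it was 0, and became 4 with DESeq2, 4 with no filter on low genes and 3 with the replicate block; leaving out 1 library gave 0 to 0. Within erythroid wells it was 0, and became 4 with DESeq2, 4 without the filter and 1 with classes from thinned wells, and stayed at 0 with the pair as a block; leaving out 1 library gave 0 to 0. Against wells with neither transcript it was 0 of 0 tested, and became 1 at a minimum of 500 transcripts, 7 without the filter and 2 with at least 2 transcripts for a class; with classes from thinned wells 4 were tested and 0 called; leaving out 1 library gave 0 to 2. Between Alas2 and Car1-only wells it was 1, and became 0 at a minimum of 2000 transcripts, with thinned wells and with classes from thinned wells, in each of which the filter removed Slc4a1; leaving out 1 library gave 0 to 1. The pair block changed no call of a member or listed gene other than Rhd, Add2, Cldn13 and Tpm1, all between the sorts. Without the library block, Tpm3 lost its call against wells with neither transcript, where 56 genes were called against 135, and no member's call changed; between Alas2 and Car1-only wells 3 genes were called against 2. Calls between the sorts with the block were 43 higher and 113 lower, against 1 and 24, and within erythroid wells 4 higher and 45 lower, against 3 and 21. DESeq2 called 270 genes between the sorts and 198 within erythroid wells.

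Of 253 member log2 differences under other settings, 231 kept direction and call, 20 gained a call and 2 reversed: Epb4.1 between the sorts became 0.11 without CD44- replicate 1 and 0.23 on the shared plates only, and leaving out 1 library gave -1.57 to 0.11; the cause was not tested. Of 112 shares of wells by class, 85 stayed within their interval. Depth limits the CD44- libraries, where Add2 and Cldn13 rest on 1 to 6 transcripts.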
